A study of Rattus norvegicus and Sus scrofa and Bos taurus with 188 samples.

Results

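Complex I (NADH:ubiquinone oxidoreductase) is the largest enzyme of the respiratory chain. It takes electrons from NADH at the tip of a peripheral arm that reaches into the mitochondrial matrix, passes them along iron-sulfur clusters to ubiquinone, and couples this to proton pumping through a membrane arm. Its core subunits come from both the nuclear and the mitochondrial genome, around them sit supernumerary subunits that stabilise the enzyme, and dedicated assembly factors join the parts without remaining in the product. Before implantation, embryos rely on oxidative phosphorylation in mitochondria inherited from the egg.

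The transcripts of this enzyme were read in pig morulae whose titles carry the mark PG, used in sister samples for parthenogenetic activation, in which an egg is activated without sperm and the embryo has a maternal genome only. Members were all genes whose symbol begins with NDUF, 39 of the 15877 gene names in the table, held in 60 of its 37571 transcript rows. By symbol they fall into 10 NDUFA, 8 NDUFB, 2 NDUFC, 8 NDUFS and 3 NDUFV genes and 8 assembly factors of the NDUFAF series. The group has 4 Smart-seq2 libraries, made by a method that copies polyadenylated RNA into full-length cDNA, while the labels give the extracted molecule as total RNA. The authors merged the 4 libraries into 1 column of FPKM, a fragment number corrected for transcript length and sequencing depth. No other group of the series was analysed here, and neither the pig breed, the number of embryos per library nor their age is given in the labels. A gene's level below is its highest transcript row. Because there is 1 merged column, no value has a replicate error, no test of a difference was possible, and all statements compare levels within this column. Depth is unknown.

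The labelled material was checked against markers of early embryos and of the somatic cells around the egg. All 8 genes of an early embryo list stood above 30 FPKM, from SALL4 at 30.9 FPKM to TFAP2C at 194 FPKM. The list includes H1FOO, the linker histone gene of the oocyte, at 90.3 FPKM, and holds no gene that sets a morula apart from an egg or another cleavage stage, so the stage itself was not checked. Of 11 measured markers of cumulus and granulosa cells, which surround the egg, 0 reached 1 FPKM, with CYP19A1 highest at 0.835 FPKM and FSHR, FOXL2, INHA and TNFAIP6 listed at 0.

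NDUF genes stood among the abundant transcripts of these embryos. At 1 FPKM or more were 38 of the 39 members, against 48.8% of all genes. At 10 FPKM or more were 37 members, against 20.2% of all genes, and at 100 FPKM or more 14 members, against 3.14%. Ordered by level, 6 members lay in the top 1% of the 15877 genes, 18 in the top 5% and 31 in the top 10%. The members had a median of 57.6 FPKM, and the median over all genes was 0.916 FPKM, or 6.89 FPKM over the 7747 genes at 1 FPKM or more. With all their rows summed, the members took 1.73% of the FPKM total.

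**Figure D1:**
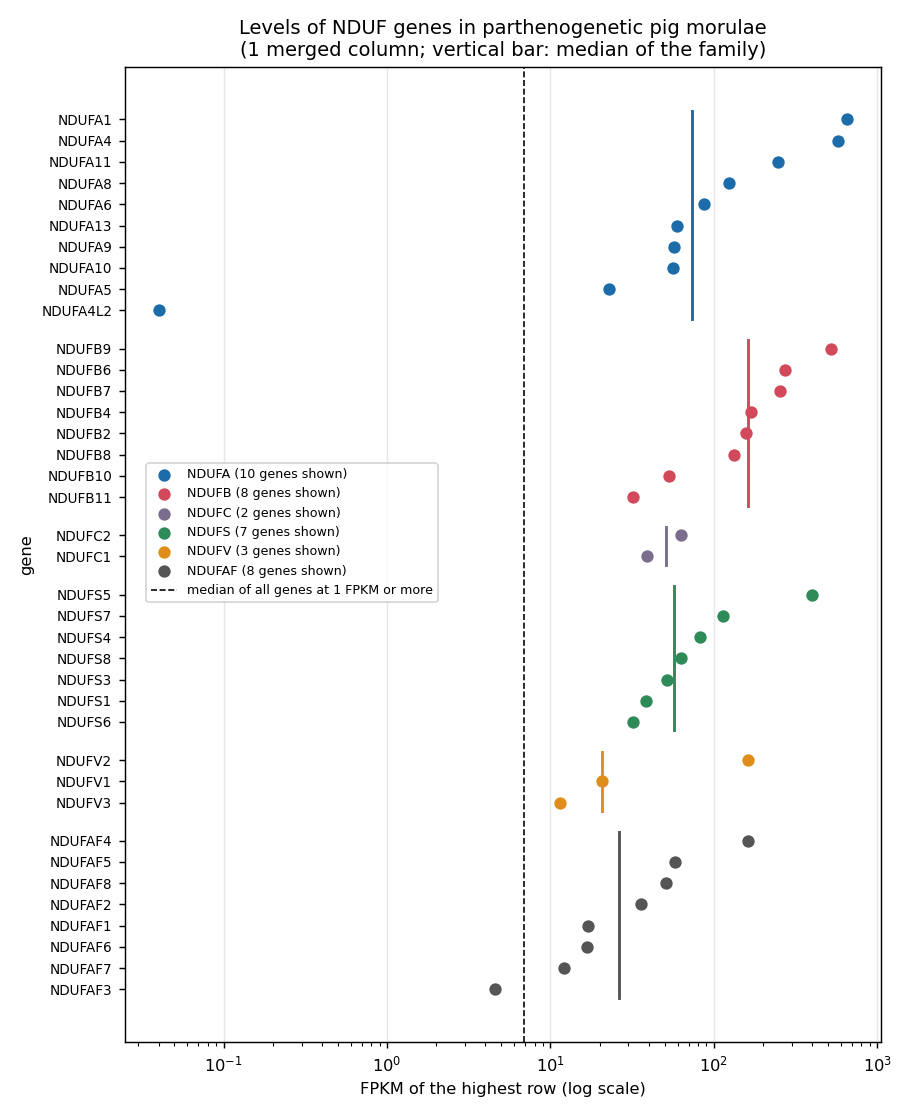
Level of 38 NDUF genes in parthenogenetic pig morulae, as FPKM of the highest row on a log axis, grouped by family, with the median over all members of each family as a vertical bar and the median of all genes at 1 FPKM or more (6.89 FPKM) as a dashed line. Apart from NDUFAF3 (4.56 FPKM) and NDUFA4L2 (0.0404 FPKM), every gene shown lies to the right of the dashed line.

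The catalytic core has 7 nuclear subunits, and all 7 were measured, with levels from 20.8 to 161 FPKM and a median of 52.0 FPKM. In the part that oxidises NADH, NDUFV1, which binds NADH and the flavin that accepts its electrons, stood at 20.8 FPKM, the lowest core value. Its partner NDUFV2, an iron-sulfur protein, stood at 161 FPKM, 7.74-fold above it and the highest of the core. NDUFS1, the large iron-sulfur subunit that leads electrons away from them, stood at 38.5 FPKM. These genes thus span the whole range of the core.

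The core has 4 nuclear subunits next to ubiquinone, with a median of 57.4 FPKM. NDUFS7 carries the last iron-sulfur cluster before ubiquinone and stood at 114 FPKM. NDUFS8, which holds clusters upstream of it, stood at 62.8 FPKM. NDUFS3, a core subunit without a cluster, stood at 52.0 FPKM. The median of the NADH-oxidising core was 0.671 of the median of the ubiquinone-reducing core. The levels overlapped, and with 3 and 4 genes this ratio is no more than a description.

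The remaining 7 core subunits, ND1 to ND6 and ND4L, are encoded by mitochondrial DNA and form the proton-pumping part of the membrane arm. All 7 were listed at 0. They lie in the closing stretch of the table, 474 rows that all hold 0, so their level cannot be read from it. None of the NDUF rows lies in that stretch.

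Supernumerary subunits held most of the NDUF signal, 1.20% of the FPKM total with rows summed. Of 30 nuclear supernumerary subunits listed for the mammalian enzyme, 22 were measured, with a median of 84.7 FPKM. All 22 stood at 10 FPKM or more, against 20.2% of all genes. NDUFA2, NDUFA3, NDUFA7, NDUFA12, NDUFAB1, NDUFB1, NDUFB3 and NDUFB5 were not analysed here. Taken with NDUFA4 and NDUFA4L2, which carry the name only, the median of the core was 0.613 of that of the 24 other genes. The 22 ranged 57.1-fold, from NDUFV3 to NDUFA1.

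Within the NDUFA family the levels were widely spread. NDUFA1, a small subunit with a single membrane span, was the highest member of all at 649 FPKM and rank 63 of all genes. NDUFA11, a membrane subunit on the side that meets complex III in supercomplexes, stood at 247 FPKM. NDUFA8, a disulfide-bonded subunit on the intermembrane space side, stood at 124 FPKM. NDUFA6, which holds acyl carrier protein on the peripheral arm, stood at 87.5 FPKM. Next came 3 genes whose highest rows were nearly equal: NDUFA13, also known as GRIM-19, at 59.3 FPKM, NDUFA9, a relative of short-chain dehydrogenases, at 57.3 FPKM, and NDUFA10, a relative of nucleoside kinases, at 56.5 FPKM. With rows summed NDUFA9 came to 112 FPKM, and NDUFA13 and NDUFA10, which have 1 row each, kept their levels. NDUFA5, on the peripheral arm, was the lowest true subunit of the family at 22.7 FPKM, and NDUFA1 exceeded it 28.6-fold.

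NDUFA4 and NDUFA4L2 are related genes at opposite ends of the list. NDUFA4 was first described in complex I and is now counted as a subunit of complex IV. Its level was 577 FPKM, rank 71. NDUFA4L2, its paralogue known from the hypoxia response, stood at 0.0404 FPKM, rank 12300, and was the only member below 1 FPKM. Each has 1 row in the table.

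NDUFB genes encode subunits of the distal membrane arm and had the highest family median, 162 FPKM, with 6 of 8 at 100 FPKM or more. NDUFB9, which like NDUFA6 binds acyl carrier protein, led at 523 FPKM, 5.98-fold above NDUFA6. NDUFB6 stood at 271 FPKM and the disulfide-bonded NDUFB7 at 255 FPKM. NDUFB4 (168 FPKM), NDUFB2 (157 FPKM) and NDUFB8 (134 FPKM) formed the middle of the family. The lowest were NDUFB10 at 52.9 FPKM, another intermembrane space subunit with cysteine motifs, and NDUFB11 at 31.8 FPKM. NDUFB9 exceeded NDUFB11 by 16.4-fold.

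The family named NDUFC belongs to the proximal membrane arm and had 2 genes, NDUFC2 at 63.2 FPKM and NDUFC1 at 39.2 FPKM. NDUFC2 was the median gene of the 31 NDUF genes outside the NDUFAF series.

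Among the supernumerary NDUFS and NDUFV genes, NDUFS5 stood apart at 397 FPKM. It encodes a disulfide-bonded subunit on the intermembrane space side of the membrane arm. NDUFS4, a peripheral subunit whose loss causes Leigh syndrome, stood at 82.0 FPKM. NDUFS6, a zinc-binding subunit needed to dock the NADH-oxidising part, stood at 32.0 FPKM. NDUFV3, a small subunit beside NDUFV1 and NDUFV2, was the lowest true subunit at 11.4 FPKM. The 4 disulfide-bonded subunits of the intermembrane space, NDUFS5, NDUFB7, NDUFA8 and NDUFB10, therefore did not share a level: the highest exceeded the lowest 7.51-fold.

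When the 29 measured subunits were sorted by the place of the protein, a sorting made after the values were seen, membrane arm genes lay higher. The 13 genes of the peripheral arm had a median of 52.0 FPKM and ranged from 11.4 to 161 FPKM. The 8 genes of the proximal membrane arm had a median of 93.7 FPKM (39.2 to 649 FPKM), and the 8 of the distal membrane arm 162 FPKM (31.8 to 523 FPKM). Over both parts the membrane arm median was 2.79-fold that of the peripheral arm. Of 16 membrane arm genes 14 exceeded the peripheral median, and of 13 peripheral genes 1, NDUFV2, exceeded the membrane arm median. The groups overlapped between 31.8 and 161 FPKM. Transcript lengths were not used here, and their part in the levels was not tested.

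**Figure D2:**
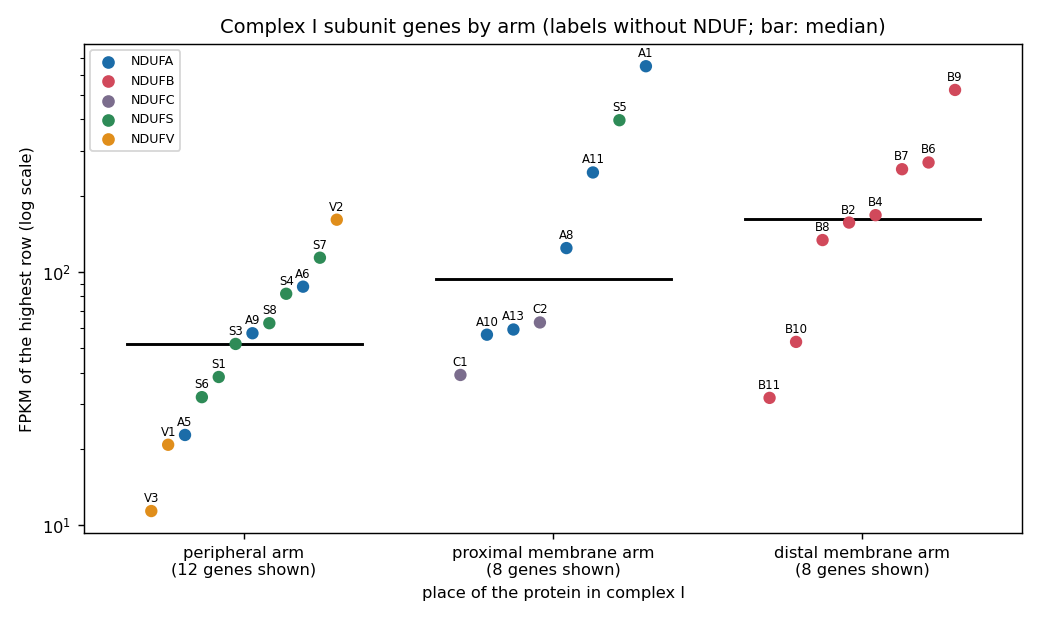
FPKM of the highest row (log axis) for 28 complex I subunits, by place in the enzyme, with names shortened by leaving out NDUF, colours by family and a bar at the median of all measured genes of each place. The medians are 52.0, 93.7 and 162 FPKM from left to right, and all 3 groups overlap.

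The levels did not cluster at a common value. Of the 31 NDUF genes outside the NDUFAF series, 16 lay within 2-fold of their median of 63.2 FPKM, 11 lay over 2-fold above it, and 4 lay further below, namely NDUFA5, NDUFV1, NDUFV3 and NDUFA4L2. The 5 highest, NDUFA1, NDUFA4, NDUFB9, NDUFS5 and NDUFB6, held 52.7% of the summed level of the 31 genes.

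Assembly factors were lower than subunits. All 8 NDUFAF genes stood at 1 FPKM or more and 7 of them at 10 FPKM or more, against 48.8% and 20.2% of all genes. The median of the 8 was 26.3 FPKM, and the subunit-named genes had a median 2.40-fold higher. Only NDUFAF4 exceeded the median of the subunit-named genes, and 4 of those 31 genes lay below the median of the factors.

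NDUFAF4 led at 162 FPKM. Its protein works together with NDUFAF3 on the early peripheral arm intermediate, yet NDUFAF3 was the lowest factor at 4.56 FPKM, 35.5 times below (56.3 times with rows summed). NDUFAF5, which hydroxylates an arginine of NDUFS7, stood at 57.6 FPKM and its partner NDUFAF8 at 50.8 FPKM, a ratio of 1.13. Of these partners, picked after their values were seen, one couple had like levels and the other did not.

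NDUFAF2, a paralogue of NDUFA12 that binds a late intermediate, stood at 35.6 FPKM. NDUFAF1, of the intermediate that builds the proximal membrane arm, stood at 17.0 FPKM. NDUFAF6, a factor of the early membrane part, stood at 16.8 FPKM. NDUFAF7, a methyltransferase, stood at 12.0 FPKM. NDUFS7, which NDUFAF5 modifies, exceeded NDUFAF5 1.98-fold.

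Of 11 assembly factors with other names, 10 were measured, with a median of 15.8 FPKM. All 10 stood at 1 FPKM or more, against 48.8% of all genes. COA1 was not analysed here. TMEM70 (78.0 FPKM) and TMEM126B (61.3 FPKM) were the highest, and NUBPL, which delivers iron-sulfur clusters, at 4.62 FPKM and FOXRED1 at 1.69 FPKM the lowest. The partners of NDUFAF1 in its assembly complex differed: TMEM126B exceeded ACAD9 (5.95 FPKM) 10.3-fold, with ECSIT between them at 26.4 FPKM. With its 4 rows summed, NUBPL came to 11.9 FPKM.

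Iron-sulfur clusters fill the peripheral arm, so the genes that make them were read as well. Of 15 listed genes 10 were measured, with a median of 13.1 FPKM. All 10 stood at 1 FPKM or more, against 48.8% of all genes. NFS1, LYRM4, ISCA1, NFU1 and FDX2 were not analysed here, so the median covers only a part of the list. The chaperone gene HSPA9 stood at 229 FPKM and GLRX5, which relays finished clusters, at 110 FPKM. IBA57, a late factor of cluster assembly, stood at 1.68 FPKM and the ferredoxin gene FDX1 at 1.36 FPKM. The other ferredoxin gene of the list, FDX2, has no value here, so FDX1 does not stand for both. ISCU, the scaffold on which clusters form, stood at 22.7 FPKM, and 6 of the 10 genes lay below the lowest nuclear core subunit of complex I.

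Most NDUF genes had a single transcript row. That was the case for 26 of 39 members (66.7%), against 44.5% of all genes. Of the 13 others, 6 had 2 rows, 6 had 3 rows and 1, NDUFAF5, had 4. The highest row held 90% or more of the gene's sum in 4 genes, NDUFS5, NDUFS7, NDUFV2 and NDUFAF5, from 70% to under 90% in 5, and under 70% in 4.

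The 4 genes with divided signal were NDUFA9, NDUFS8, NDUFAF4 and NDUFAF2. NDUFA9 had 57.3 and 54.9 FPKM in its 2 rows, so the level given above is 51.1% of its sum of 112 FPKM. NDUFS8 had 62.8, 31.3 and 6.63 FPKM, with a sum of 101 FPKM. NDUFAF4 had 162 and 95.0 FPKM, with a sum of 257 FPKM, which kept it the highest factor. NDUFAF2 had 35.6 and 20.0 FPKM and its last row near 0. The sources used here do not give the way fragments were divided between rows of a gene. The median of the 31 subunit-named genes rose from 63.2 to 101 FPKM with rows summed.

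**Figure D3:**
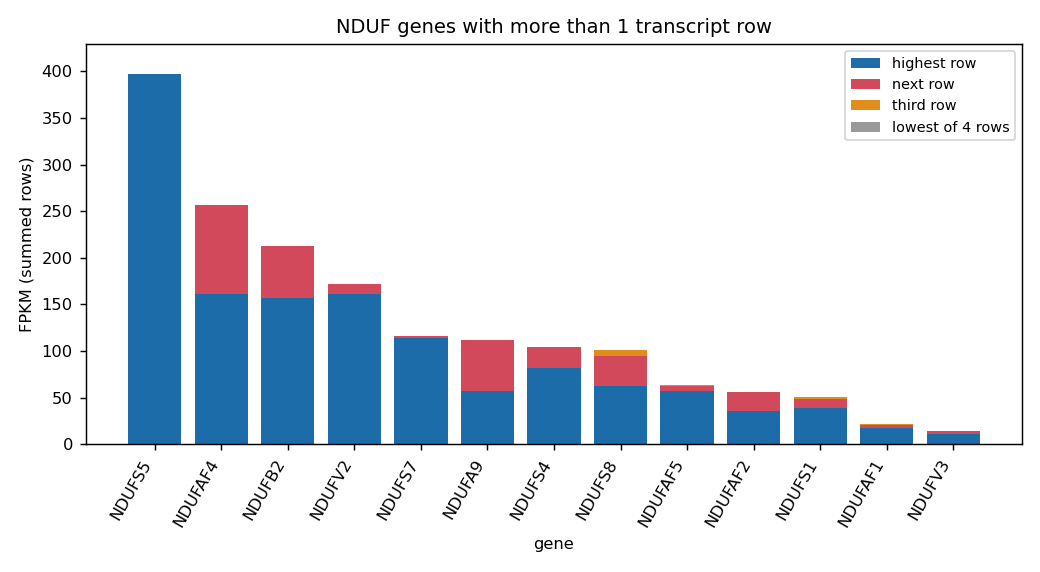
Summed FPKM of the 13 NDUF genes with more than 1 transcript row, as stacked bars from 0, coloured by the order of the row within the gene. In NDUFA9 both rows are nearly equal (57.3 and 54.9 FPKM), while NDUFS5 rests on 1 row of 397 FPKM.

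Complex I genes were lower than those of complexes III, IV and V, while their order against complex II turned with the way rows were read. The 30 measured nuclear genes listed for complexes II to V, leaving NDUFA4 out, had a median of 231 FPKM. Counted among them, under complex V, is ATP5IF1 (206 FPKM), which encodes an inhibitor of ATP synthase and not a subunit. The median of the 30 was 3.65-fold that of the 31 subunit-named NDUF genes. With rows summed the ratio was 2.29. Of those 30 genes 28 exceeded the NDUF median (24 with rows summed). Of the 31 NDUF genes 7 exceeded the median of the 30, among them NDUFA4, which is no complex I subunit. By complex, the medians were 89.9 FPKM for complex II (succinate dehydrogenase, 4 genes) and 182 FPKM for complex III (5 genes). Those of complex IV (8 genes) and complex V (ATP synthase, 13 genes) were 314 and 339 FPKM. Of 9, 10 and 18 genes listed for complexes III, IV and V, 4, 2 and 5 were not analysed here. The complex II median was 1.42-fold the NDUF median by the highest rows and 0.893 of it with rows summed, at 89.9 against 101 FPKM. With rows summed the ratios to the NDUF median were 1.81 for complex III, 3.12 for complex IV and 3.38 for complex V, against 2.88, 4.97 and 5.37 by the highest rows.

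The highest NDUF gene, NDUFA1 at 649 FPKM, lay near UQCR10 of complex III (629 FPKM) and ATP5PO of complex V (657 FPKM). It lay below COX7A2 (2126 FPKM) and COX4I1 (1515 FPKM) of complex IV. ATP5MD (1836 FPKM) and ATP5MC3 (1210 FPKM), the highest measured genes of complex V, also lay above it. The lowest subunit of complex V, ATP5F1D at 13.4 FPKM, and SDHC of complex II at 31.9 FPKM lay within the low part of the NDUF range. Genes with the MRPL and MRPS symbols of mitochondrial ribosomal proteins, which translate the ND subunits, were taken by name alone. Over 63 such genes the median was 44.5 FPKM, 0.704 of the NDUF median. Of the 63, 17 stood at 100 FPKM or more, against 3.14% of all genes. MRPL41 and MRPS2 among them were listed at 0 in the closing stretch of the table, so their level cannot be read, yet the median counts them. With genes under 0.1 FPKM left out of both lists, NDUFA4L2 among them, the ratio was 0.643.

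**Figure D4:**
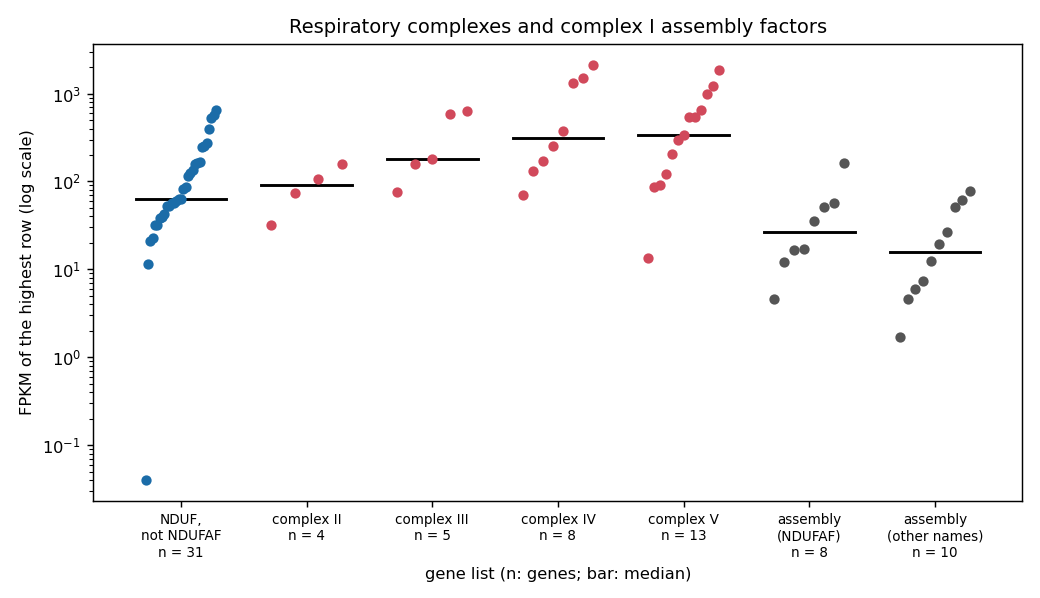
FPKM of the highest row (log axis), with a bar at each median. Shown are NDUF genes outside the NDUFAF series, measured nuclear genes listed for complexes II to V and both lists of complex I assembly factors. The inhibitor gene ATP5IF1 is counted under complex V. Medians are 63.2, 89.9, 182, 314, 339, 26.3 and 15.8 FPKM from left to right, and the single low point among the NDUF genes is NDUFA4L2, no complex I subunit itself, at 0.0404 FPKM.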

How the data were processed

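The deposited table holds FPKM values, per the file headers, with 1 row per Ensembl transcript and the 4 libraries merged into 1 column, per the name of the table. The submitters' processing notes list TopHat2 2.1.1, Cufflinks 2.2.1 and Bowtie2 2.1.0 and 2.2.5 among tools for all data types, and susScr11 among the builds. The sources used here do not say which of them made this table.

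A gene's value was its highest row, and lists were summarised by counts at 1, 10 and 100 FPKM and by medians (Python 3.11.15, pandas 2.3.3, numpy 2.4.6). The summary steps were tested on simulated data. No test was made, since libraries cannot be separated. Named genes were all members, ordered by family and role, and some, not all, of the extremes of the other lists. H1FOO, ISCU, ECSIT, ACAD9, ATP5PO, ATP5IF1, NRF1, GABPB1, POLRMT and PPARGC1B, and the ratios between single genes, were chosen after their values were seen. Some genes of the enzyme, and all sequences, were not analysed here, and the level of 1 member is not reported here. Members, lists and places were chosen with earlier results of these data known. Alternatives were summed rows, a filter at 0.1 FPKM, geometric means with a pseudocount of 1 or 0.1, other thresholds, scaling to TPM, and leaving out NDUFA4 and NDUFA4L2.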

Additional observations from a re-analysis of the deposited data

How the results depend on the processing

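Of 82 alternative values of 19 results, 74 lay within 1.5 times the value given, and 1 ratio crossed 1. Some of the 74 could not move, so their number does not measure how robust the results are. Among members the filter at 0.1 FPKM removes only NDUFA4L2, so NDUF lists without it kept their medians. Leaving out NDUFA4 and NDUFA4L2 takes 1 gene from each side of a median. No member lies in the closing stretch of zeros, so leaving that stretch out could not change the count of members. With rows summed the median of the subunit-named genes was 101 FPKM in place of 63.2 FPKM, and complexes II to V exceeded them 2.29-fold in place of 3.65-fold. Complex II then lay below them, at 0.893 of their median in place of 1.42, and complexes III, IV and V exceeded them 1.81, 3.12 and 3.38-fold. By construction a sum adds the further rows of any gene that has them. The 13 NDUF genes with further rows include NDUFAF1, NDUFAF2, NDUFAF4 and NDUFAF5, which are not subunit-named genes. Some genes of complexes II to V have further rows too, but the median of complexes II to V stayed at 231 FPKM. The NDUFV level over its 3 genes was 34.2 and 33.7 FPKM as a geometric mean with a pseudocount of 1 and 0.1, against a median of 20.8 FPKM. The count of 38 members became 37 at 5 and at 10 FPKM and was 38 under the other settings. The comparison of the arms, those with single complexes and that with mitochondrial ribosomal proteins were added after seeing the data. Leaving out a replicate was not run, and no paired analysis was possible because the libraries share 1 column. Depth is unknown, and 4534 rows above 0 lay under 1e-06 FPKM.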

Other observations

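Regulators of mitochondrial gene expression were read beside the complex I genes. Of 10 measured genes 9 stood at 1 FPKM or more, against 48.8% of all genes, with a median of 10.9 FPKM over the 10. TFAM, which packages mitochondrial DNA and takes part in its transcription, was highest at 111 FPKM, and the transcription factor gene TFB2M followed at 34.8 FPKM. NRF1, an activator of many respiratory genes, stood at 5.99 FPKM, and GABPB1, a subunit of another such activator, at 18.2 FPKM. The polymerase gene POLRMT, which reads the mitochondrial genome, stood at 4.94 FPKM. With rows summed, GABPB1 came to 31.0 FPKM, NRF1 to 8.63 FPKM and POLRMT to 7.47 FPKM, and the median of the list to 12.2 FPKM. The coactivator gene PPARGC1A was listed at 0, outside the closing stretch of zeros, and its relative PPARGC1B and the receptor gene ESRRA stood at 1.35 and 1.19 FPKM. GABPA was not analysed here.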
